A study of Mus musculus with 9 samples.

Results

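The Notch receptors, ligands and targets examined here are 10 genes, taken by gene symbol from the 23420 genes of each count file: the receptors Notch1, Notch2 and Notch3, the ligands Jag1 and Jag2, and the target genes Hes1, Hey1, Hey2, Heyl and Nrarp. All 10 were found in the files and all 10 passed the filter on low counts, which left 16360 genes for testing. RNA was sequenced from whole ovaries of wild type CD1 mice, an outbred strain, removed at embryonic day 16 and held for a further 24 hours on culture inserts in serum-free medium with insulin, transferrin, selenium and linoleic acid. The groups, of 3 libraries each, differed in what that medium held: vehicle alone, bone morphogenetic protein 2 (BMP2, a ligand of the TGFβ family, given as recombinant human protein, 50 ng/ml), or estradiol-17β (E2, an oestrogen, 3.67 µM). The treatment of a library is known from the prefix of its title alone, and how many ovaries or litters went into a library is not given in the sources used here. The p-values therefore measure the spread between these libraries, which may be technical.

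Notch signalling runs between touching cells. A membrane-bound Jagged or Delta-like ligand on one cell engages a Notch receptor on the next, ADAM proteases and then γ-secretase cut the receptor, and the released intracellular domain joins the DNA-binding protein RBPJ and Mastermind coactivators to switch on target genes, above all the Hes and Hey repressors. In the perinatal mouse ovary Jag1 is known chiefly from oocytes and Notch2 from the pregranulosa cells that come to surround them, and the pathway is known to act while germ cell cysts break down and primordial follicles form.

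The libraries held 30418674 to 34320077 counts in genes. Germ cell markers (6 of 6) and pregranulosa markers (7 of 7) had counts in every library, with summed levels of 1359 to 1470 CPM and 1667 to 1896 CPM, so both defining cell types of the labelled tissue were represented. CPM is the count scaled to the library's size after TMM normalization. Other cell types were represented too, and some of their markers moved with the treatments. All 7 markers of surface epithelium and mesothelium fell with BMP2 and with E2, and their sum ran from 607 to 632 CPM with vehicle, 532 to 544 CPM with BMP2 and 416 to 425 CPM with E2. Of 8 endothelial markers, 2 rose and none fell with BMP2, while 7 rose and 1, Kdr, fell with E2. The endothelial sums overlapped between groups (230 to 236 CPM with vehicle, 232 to 238 CPM with BMP2, 231 to 242 CPM with E2), with Kdr at 109 to 111 CPM with vehicle and 85.0 to 91.1 CPM with E2. The markers of some other cell types did not move together. Of 9 markers of pericytes and smooth muscle, none rose and 2 fell with BMP2, and 3 rose (Myh11, Abcc9 and Kcnj8) and 1, Tagln, fell with E2. Their sum was 458 to 469 CPM with vehicle, 427 to 429 CPM with BMP2 and 611 to 631 CPM with E2, of which Myh11 alone made up 59.2 to 60.4 CPM with vehicle and 200.2 to 205 CPM with E2. Of 7 pregranulosa markers, 3 rose and 1 fell with BMP2, and 2 rose (Wnt4 and Irx3) and 2 fell (Kitl and Lgr5) with E2. Their sum was 1838 to 1896 CPM with vehicle, 1879 to 1894 CPM with BMP2 and 1667 to 1683 CPM with E2, of which Kitl was 948 to 1007 CPM with vehicle and 770 to 778 CPM with E2. All 4 tested markers of oocyte differentiation rose with either treatment, from a sum of 76.4 to 81.8 CPM with vehicle to 100.3 to 107 CPM with BMP2 and 107 to 108 CPM with E2. In whole ovaries a smaller number of cells of a type and less RNA per cell cannot be told apart, and the part of these marker changes in the results on Notch genes was not tested.

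Per kilobase of exon, a scale on which genes can be set beside each other, Hes1 was the most abundant of the 10 transcripts in vehicle-treated ovaries, at 18.5 ± 0.811 CPM per kb (SD, n = 3). Notch2 followed at 12.4 ± 0.184 CPM per kb, ahead of the other receptors Notch3 (3.63 ± 0.149) and Notch1 (1.04 ± 0.056). Among the ligands, Jag2 stood at 3.32 ± 0.176 and Jag1 at 2.22 ± 0.0850 CPM per kb. The remaining targets were Hey1 at 5.16 ± 0.203, Heyl at 1.61 ± 0.216, Nrarp at 1.21 ± 0.0685 and Hey2 at 0.591 ± 0.0509 CPM per kb. The libraries of neighbours in this order did not overlap with vehicle; the closest were Notch3, at 3.47 to 3.76, and Jag2, at 3.12 to 3.44 CPM per kb. The order of these neighbours rests on the length used: over the longest annotated transcript Jag2 came out at 4.54 CPM per kb, above Notch3, and Notch1 at 1.56, above Nrarp. With either treatment Jag2 stood above Notch3 on both lengths, at 4.02 against 3.77 CPM per kb of exon with BMP2 and 4.31 against 3.47 with E2.

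**Figure D1:**
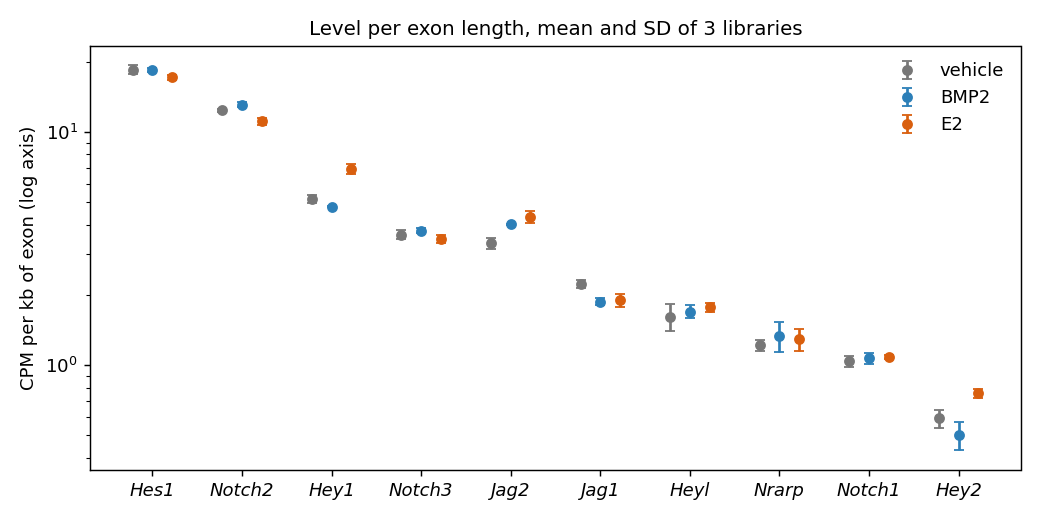
Mean level of the 10 Notch genes in CPM per kilobase of exon (log axis), with the SD of 3 libraries as bars, for vehicle (grey), BMP2 (blue) and E2 (orange), ordered by the vehicle mean. Levels run from 18.5 for Hes1 to 0.591 for Hey2 with vehicle, and Jag2, below Notch3 with vehicle, lies above it with BMP2 and with E2.

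Both ligands and Notch2 changed with BMP2: Jag2 rose 1.21-fold, Notch2 rose 1.06-fold and Jag1 fell 1.19-fold, and no target gene passed the test. With E2, Jag2 rose 1.30-fold, Hey1 1.34-fold and Hey2 1.28-fold, while Jag1 fell 1.17-fold, Notch2 1.12-fold and Hes1 1.08-fold. The call rule was an adjusted p under 0.05 (edgeR quasi-likelihood test, Benjamini-Hochberg over all 16360 genes). By it 2 of the 10 Notch genes were higher and 1 lower with BMP2 than with vehicle, where 13.7% of all genes were called (6.84% higher, 6.85% lower). With E2, 3 were higher and 3 lower than with vehicle, where 32.3% of all genes were called (15.8% higher, 16.5% lower). Between the treatments, 3 were higher and 2 lower with BMP2 than with E2, where 28.2% of all genes were called (14.1% higher, 14.0% lower). Groups did not overlap for 4 of the 10 genes in BMP2 against vehicle (28.0% of all genes), for 6 in E2 against vehicle (41.2%) and for 6 in BMP2 against E2 (39.6%). Median log2 fold changes of the 10 genes were 0.051, 0.076 and -0.019 in these comparisons, beside -0.0015, -0.0026 and 0.0014 over all genes tested. Both comparisons with vehicle use the same vehicle libraries, so a high or low vehicle library enters both.

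**Figure D2:**
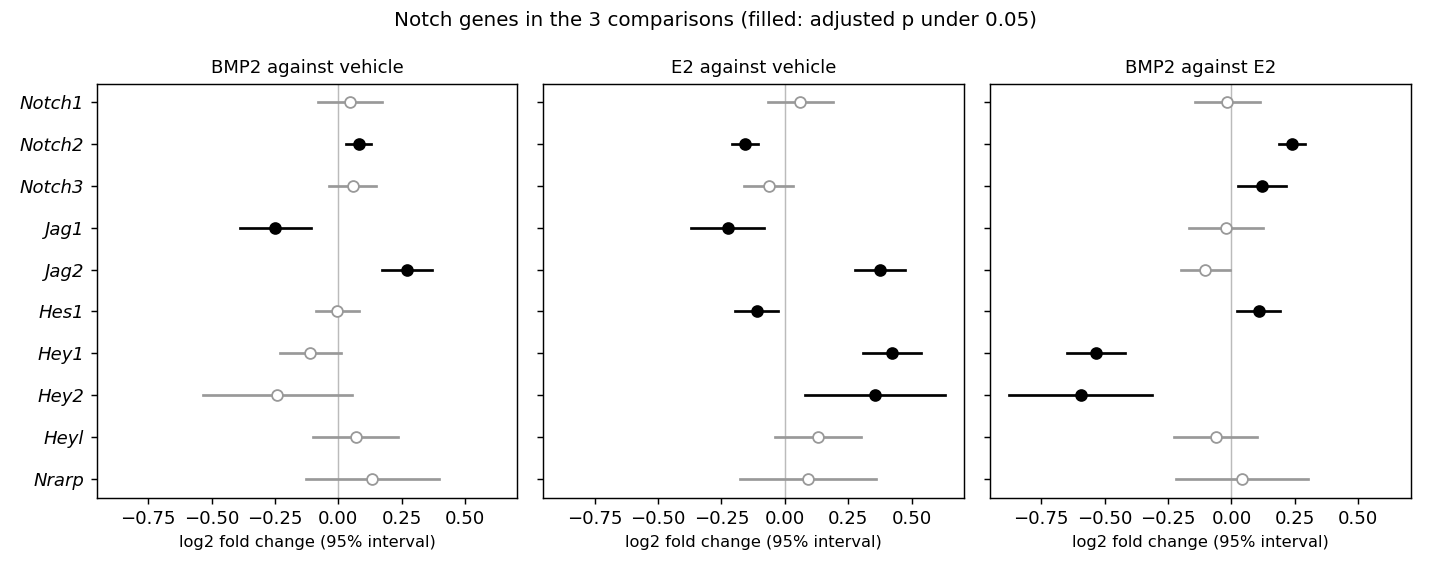
Log2 fold change (points) with its 95% interval (lines) for the 10 Notch genes in each of the 3 comparisons; filled black points have an adjusted p under 0.05. Jag1 and Jag2 lie on the same sides of 0 against vehicle with either treatment, whereas Notch2 is above 0 with BMP2 (0.080) and below it with E2 (-0.16).

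Among the receptors, Notch2 (chr3:98013527-98150361, plus strand, GRCm38) was the one that passed the test in all 3 comparisons, and its direction differed between the treatments. It was measured at 135, 133 and 132 CPM in the vehicle libraries, at 138, 144 and 142 CPM with BMP2 and at 125, 117 and 117 CPM with E2. Every BMP2 library lay above, and every E2 library below, the vehicle libraries. The means were 133 ± 1.98 CPM with vehicle, 141 ± 3.19 CPM with BMP2 and 120 ± 4.56 CPM with E2 (SD, n = 3). The rise with BMP2 had a log2 fold change of 0.080 ± 0.025 (SE; adjusted p = 0.0189), and the fall with E2 was -0.16 ± 0.026 (adjusted p = 1.5e-07). BMP2 against E2 gave 0.24 ± 0.026 (adjusted p = 1.1e-14). The rise with BMP2 no longer passed when BMP2 replicate 2 (adjusted p = 0.117), BMP2 replicate 3 (0.0693) or vehicle replicate 3 (0.0582) was left out, or in DESeq2 (0.0657), while the differences of E2 from vehicle and from BMP2 passed without any 1 library.

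Notch3 (chr17:32120820-32166852, minus strand), a receptor known mainly from pericytes and vascular smooth muscle, was measured at 29.6, 30.4 and 28.1 CPM with vehicle, 30.5, 31.2 and 29.8 CPM with BMP2 and 27.9, 29.3 and 27.0 CPM with E2. Neither treatment passed against vehicle (log2 fold change 0.056, adjusted p = 0.494, with BMP2; -0.064, adjusted p = 0.329, with E2). BMP2 libraries lay above E2 libraries without overlap, by 0.12 ± 0.047 (adjusted p = 0.0439). The difference no longer passed without BMP2 replicate 1 (0.0929), BMP2 replicate 2 (0.155), E2 replicate 1 (0.105) or E2 replicate 3 (0.211), in DESeq2 (0.115), with no filter on low counts (0.0504) and once trends on GC content and length were removed (0.192).

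Notch1 (chr2:26457903-26516663, minus strand) was measured at 14.3, 15.7 and 14.4 CPM with vehicle, 14.4, 15.1 and 16.2 CPM with BMP2 and 15.1, 15.4 and 15.7 CPM with E2. The 3 groups overlapped. Its log2 fold change was 0.045 with BMP2 (95% interval -0.082 to 0.17, adjusted p = 0.725) and 0.061 with E2 (-0.068 to 0.19, adjusted p = 0.522). Annotated exons of other genes cover part of the exon bases of each receptor: 9.76% of Notch1 and 6.03% of Notch3 on the opposite strand, and 5.02% of Notch2 on the same strand. The library kit does not mark strand and the overlapping genes are not rows of the count files, so reads from such stretches cannot be told apart.

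**Figure D3:**
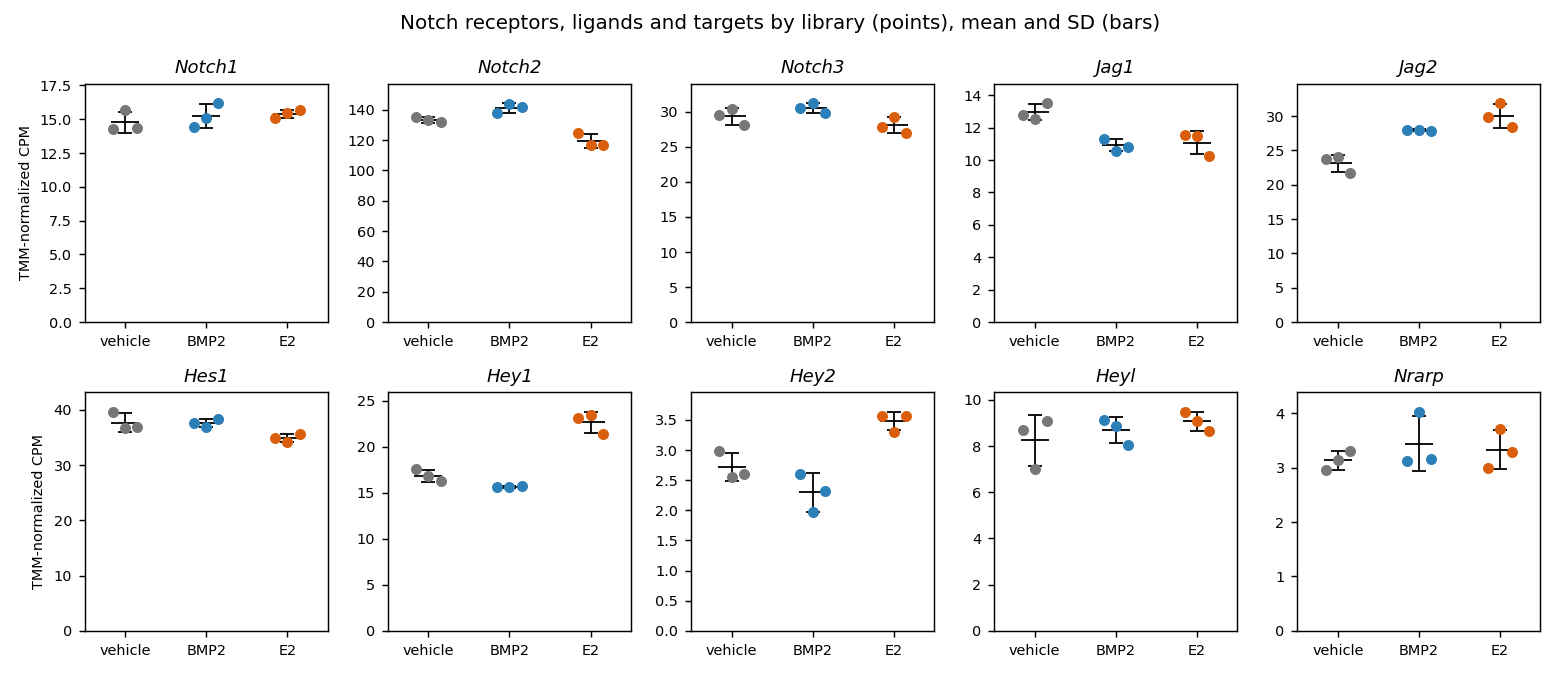
TMM-normalized CPM of the 10 Notch genes in each library (points: vehicle grey, BMP2 blue, E2 orange) with the group mean and SD (black bars); each axis starts at 0. Jag2, Hey1 and Hey2 are highest with E2, Jag1 is highest with vehicle, and the groups overlap for Notch1, Heyl and Nrarp.

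The ligands moved in opposite directions from each other, and each moved the same way with either treatment. Jag2 (chr12:112907819-112929776, minus strand) was measured at 23.7, 24.0 and 21.7 CPM with vehicle, 28.0, 28.1 and 27.8 CPM with BMP2 and 29.8, 31.9 and 28.4 CPM with E2. All 6 treated libraries lay above the highest vehicle library. The means were 23.2 ± 1.22 CPM with vehicle, 28.0 ± 0.124 CPM with BMP2 and 30.02 ± 1.74 CPM with E2 (SD, n = 3). Jag2 rose by a log2 fold change of 0.27 ± 0.050 with BMP2 (adjusted p = 1.0e-05) and of 0.37 ± 0.050 with E2 (adjusted p = 1.7e-10), and both calls held without each library in turn. The treatments did not differ from each other at the threshold (-0.10, 95% interval -0.20 to -0.0069, adjusted p = 0.104), although E2 libraries lay above BMP2 libraries without overlap. That difference passed without E2 replicate 3 (0.0385) and once trends on GC content and length were removed (0.00865).

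Jag1 (chr2:137081456-137116644, minus strand), the ligand known from oocytes, was measured at 12.8, 12.5 and 13.5 CPM with vehicle, 11.3, 10.6 and 10.8 CPM with BMP2 and 11.5, 11.5 and 10.2 CPM with E2. Every vehicle library lay above every treated library. From 12.9 ± 0.495 CPM with vehicle, the mean fell to 10.9 ± 0.364 CPM with BMP2 and to 11.1 ± 0.731 CPM with E2. In log2 terms the differences from vehicle were -0.25 ± 0.071 with BMP2 (adjusted p = 0.00885) and -0.23 ± 0.072 with E2 (adjusted p = 0.00933). Without vehicle replicate 3, the highest of the vehicle libraries, neither call held (0.0555 with BMP2, 0.0559 with E2), and the call with E2 was also lost without E2 replicate 3 (0.100). BMP2 and E2 differed by -0.022 (95% interval -0.17 to 0.12, adjusted p = 0.869). Of 6 germ cell markers, 3 rose and 1 fell with BMP2 and 2 rose and 1 fell with E2, and their sum was 1359 to 1438 CPM with vehicle, 1430 to 1470 CPM with BMP2 and 1426 to 1438 CPM with E2. The oocyte differentiation markers Nobox, Figla, Lhx8 and Sohlh1 all rose with either treatment, as given above. Any part of these marker changes in the Jag1 values was not tested.

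Of the target genes, Hey1 and Hey2 rose and Hes1 fell with E2, while Heyl and Nrarp did not pass. Hey1 (chr3:8663359-8667256, minus strand), a basic helix-loop-helix repressor, was measured at 17.5, 16.8 and 16.2 CPM with vehicle, 15.6, 15.6 and 15.7 CPM with BMP2 and 23.1, 23.4 and 21.4 CPM with E2. Every E2 library lay above, and every BMP2 library below, the vehicle libraries. The mean was 22.6 ± 1.12 CPM with E2 against 16.8 ± 0.662 CPM with vehicle, a log2 fold change of 0.42 ± 0.058 (adjusted p = 3.0e-10). With BMP2 it was 15.6 ± 0.0833 CPM, and the difference from vehicle did not pass (-0.11, 95% interval -0.23 to 0.0095, adjusted p = 0.246). BMP2 against E2 gave -0.53 ± 0.058 (adjusted p = 1.4e-14). The calls of E2 against vehicle and against BMP2 held without each library in turn. Hey1 was also the one Notch gene of the 10 that passed a test against a change of 1.2-fold, in E2 against vehicle and in BMP2 against E2.

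Hey2 (chr10:30832359-30842801, minus strand), a relative of Hey1 known from vessels and heart, was the lowest of the 10 per kilobase of exon, with 66 to 113 counts per library, beside 91 to 135 for Nrarp. It was measured at 2.98, 2.56 and 2.60 CPM with vehicle, 2.61, 1.97 and 2.32 CPM with BMP2 and 3.56, 3.30 and 3.57 CPM with E2. The E2 libraries lay above all others, whereas BMP2 and vehicle overlapped. From 2.71 ± 0.234 CPM with vehicle Hey2 rose to 3.48 ± 0.153 CPM with E2 (log2 fold change 0.35 ± 0.14, adjusted p = 0.0398), and with BMP2 it was at 2.30 ± 0.320 CPM (-0.24, adjusted p = 0.319). BMP2 against E2 gave -0.59 ± 0.14 (adjusted p = 4.2e-04), a call that held without each library in turn. The rise over vehicle did not: it was lost without vehicle replicate 2 (0.118), vehicle replicate 3 (0.113), E2 replicate 1 (0.0977) or E2 replicate 3 (0.103), and in DESeq2 (0.114). Hey2 is known from endothelium, of whose 8 markers 7 rose and 1, Kdr, fell with E2. The endothelial marker sums overlapped between vehicle (230 to 236 CPM) and E2 (231 to 242 CPM). Any part of endothelial content in the Hey2 values was not tested.

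Hes1 (chr16:30064384-30067796, plus strand), the classical Notch-induced repressor, was measured at 39.6, 36.6 and 36.8 CPM with vehicle, 37.7, 36.8 and 38.3 CPM with BMP2 and 34.9, 34.2 and 35.7 CPM with E2. The E2 libraries lay below all others, and BMP2 and vehicle overlapped. With E2, Hes1 fell from 37.7 ± 1.65 to 34.9 ± 0.773 CPM (log2 fold change -0.11 ± 0.043, adjusted p = 0.0356). With BMP2 the difference from vehicle was -0.0032 (95% interval -0.086 to 0.080, adjusted p = 0.977). BMP2 lay above E2 by 0.11 ± 0.043 (adjusted p = 0.0455). The fall with E2 was lost without vehicle replicate 1 (0.276), E2 replicate 1 (0.0803) or E2 replicate 2 (0.146), in DESeq2 (0.0980) and with the GC and length trends removed (0.0774). The difference between the treatments was lost without BMP2 replicate 1 (0.101), BMP2 replicate 3 (0.155), E2 replicate 1 (0.0971) or E2 replicate 2 (0.170), in DESeq2 (0.116) and with no filter (0.0516).

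Heyl and Nrarp passed no test. Heyl (chr4:123233556-123249875, plus strand), the third Hey gene, was measured at 8.68, 7.001 and 9.08 CPM with vehicle, 9.13, 8.85 and 8.04 CPM with BMP2 and 9.46, 9.08 and 8.66 CPM with E2. Its vehicle libraries spread the widest for their mean, at 8.26 ± 1.105 CPM, and the log2 fold changes were 0.068 with BMP2 (adjusted p = 0.676) and 0.13 with E2 (95% interval -0.037 to 0.30, adjusted p = 0.251). Nrarp (chr2:25180758-25183339, plus strand), a target that feeds back to dampen the Notch complex, was measured at 2.95, 3.14 and 3.31 CPM with vehicle, 3.13, 4.02 and 3.17 CPM with BMP2 and 3.00, 3.71 and 3.29 CPM with E2. The groups overlapped, with log2 fold changes of 0.13 with BMP2 (95% interval -0.13 to 0.40, adjusted p = 0.579) and 0.091 with E2 (-0.18 to 0.36, adjusted p = 0.658). An antisense gene, Gm38287, covers 79.4% of the Nrarp exon bases and is not a row of the files, so the Nrarp counts may hold reads of either strand.

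Promoter windows from RefSeq (GRCm38.p6, 250 bases before to 50 after the start) were at hand for 7 of the 10 Notch genes and for 48 of 62 other genes of the pathway. They were searched on both strands for the RBPJ site GTGGGAA, which 6.38% of all 32851 windows hold, for the Hes and Hey E-box CACGTG (7.15%), which can overlap it in CACGTGGGAA, and for the oestrogen response element, an inverted repeat of GGTCA around 3 free bases (0.07%). Hey2 was the one of the 7 with the RBPJ letters, Nrarp the one with the E-box, and none held the oestrogen response element letters. Of the 48 other genes 7 held the RBPJ letters and 6 the E-box, with Lfng and Psen2 among both. None held the oestrogen response element letters. The 3 stretches below are shown because they lie before or across the starts of pathway genes that E2 moved in opposite directions. These are Hey2, whose rise was lost without some libraries and in DESeq2, as given above, and Lfng, which fell. Other matches, such as those of Psen2, which was also called lower with E2, are not printed. Capitals mark the matched letters, 5′ to 3′ on the gene's strand. The first Hey2 stretch (chr10:30842954-30843020, minus strand) has its match 207 bases before the start, on the opposite strand. In the second (chr10:30842781-30842817, minus strand) the match begins 4 bases before the RefSeq start and runs across it. By the GENCODE locus given above, which starts at 30842801, that match lies inside the gene. The match of Lfng (chr5:140607199-140607268, plus strand) begins 112 bases before the start, where an E-box and an RBPJ site share letters.
Hey2, distal: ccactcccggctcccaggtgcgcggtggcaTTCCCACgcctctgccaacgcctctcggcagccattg
Hey2, proximal: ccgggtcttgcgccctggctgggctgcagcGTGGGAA
Lfng: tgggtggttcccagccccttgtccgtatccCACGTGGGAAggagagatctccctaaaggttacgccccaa
A match describes the letters alone, and no binding was measured in these data.

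The other 62 genes of the pathway were read by role, and 58 of them passed the filter on low counts (Dlk2, Rbpjl, Hes2 and Hes3 did not). With BMP2, 6 rose, 4 fell and 48 did not pass. With E2, 11 rose, 16 fell and 31 did not pass. Between the treatments 16 were higher and 9 lower with BMP2, and 33 did not pass. Beside the shares of all genes given above, 10 of 58 is a little above 13.7%, while 27 of 58 and 25 of 58 stand above 32.3% and 28.2%. The list was chosen with earlier results of these data known, and it was not matched to all genes for level. The shares are therefore a description, and an excess was not tested. Their median log2 fold changes were 0.0053, -0.013 and 0.035.

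**Figure D4:**
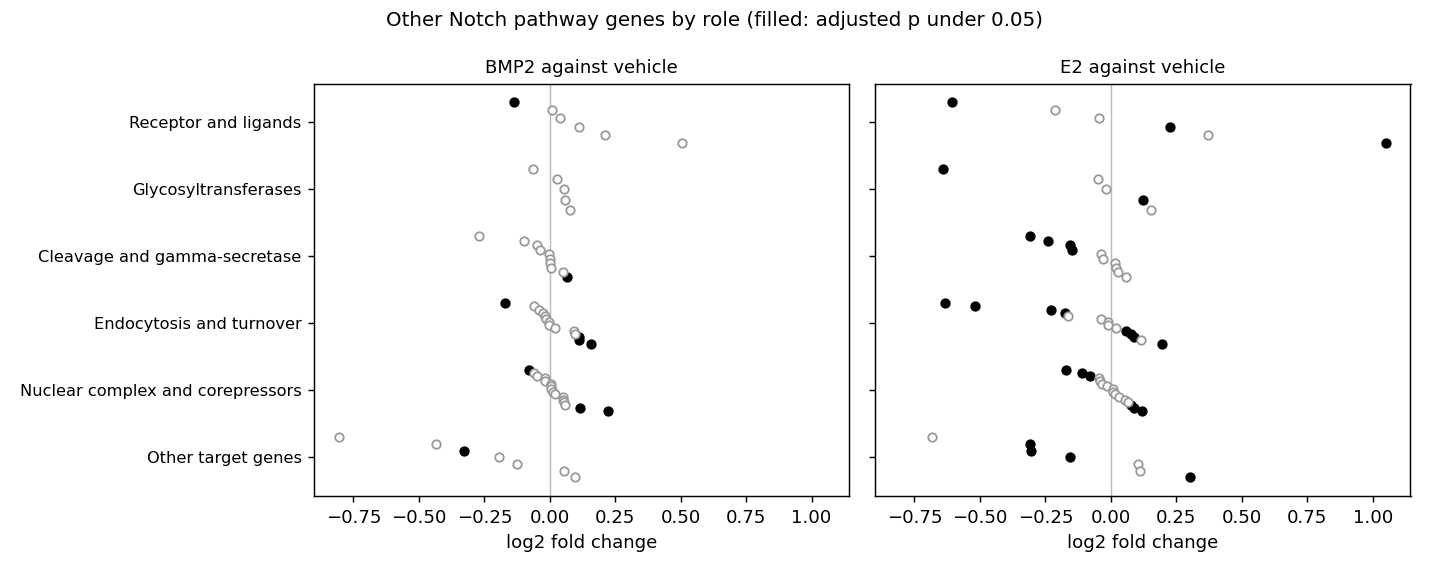
Log2 fold change of the 58 tested genes of the Notch pathway beyond the 10, each a point, in rows by role, for BMP2 (left) and E2 (right) against vehicle; filled points have an adjusted p under 0.05. Changes with BMP2 that passed lie between -0.33 and 0.22, and those with E2 between -0.64 and 1.05, where the highest point is Dll1.

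Among the remaining ligands and the receptor Notch4, the Delta-like ligand Dll1 had the largest change of any Notch pathway gene that passed. It was measured at 5.203, 4.80 and 4.79 CPM with vehicle, 5.36, 5.99 and 5.78 CPM with BMP2 and 9.83, 10.2 and 10.6 CPM with E2. Dll1 rose 2.07-fold with E2 (log2 fold change 1.05 ± 0.092, adjusted p = 3.3e-20), and with BMP2 its libraries lay above those of vehicle but did not pass (0.21, adjusted p = 0.165). Dlk1, a Notch-binding membrane protein of fetal stroma that lacks the receptor-activating domain, was measured at 115, 121 and 111 CPM with vehicle, 104, 107 and 104 CPM with BMP2 and 76.0, 77.8 and 73.8 CPM with E2. It fell 1.101-fold with BMP2 (-0.14 ± 0.028, adjusted p = 6.7e-05) and 1.52-fold with E2 (-0.61 ± 0.029, adjusted p = 9.8e-42), and of 6 stromal markers 2 fell with BMP2, and 3 rose (Lum, Dcn and Tcf21) and 3 fell with E2. The stromal sum was 871 to 893 CPM with vehicle, 851 to 856 CPM with BMP2 and 789 to 800 CPM with E2. Dll4, the endothelial ligand, rose with E2 from 8.80 ± 0.582 to 10.3 ± 0.809 CPM (0.22, adjusted p = 0.0215), with overlapping libraries. That call was lost without vehicle replicate 1 (0.0817), vehicle replicate 3 (0.0940), E2 replicate 1 (0.0807) or E2 replicate 2 (0.125), and in DESeq2 (0.0704). Notch4, the endothelial receptor, was at 10.1 ± 1.102 CPM with vehicle, 10.1 ± 1.05 CPM with BMP2 and 9.75 ± 0.468 CPM with E2 (adjusted p = 0.971 and 0.720).

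**Figure D5:**
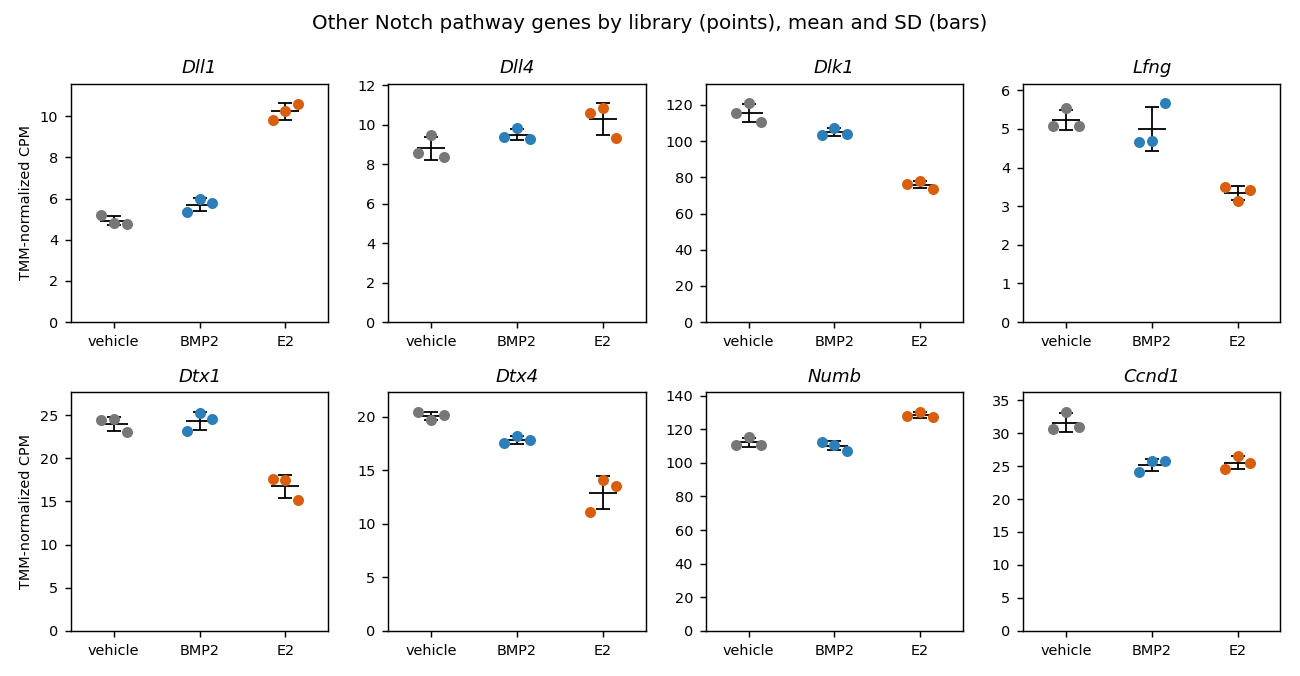
TMM-normalized CPM of 8 further Notch pathway genes in each library (points: vehicle grey, BMP2 blue, E2 orange) with the group mean and SD (black bars); each axis starts at 0. Dll1 is near 10 CPM with E2 and near 5 CPM with vehicle, whereas Dlk1, Lfng, Dtx1 and Dtx4 are lowest with E2 and Ccnd1 is lower with either treatment than with vehicle.

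Of 5 glycosyltransferases that modify the receptors, none passed with BMP2, and with E2 1 rose and 1 fell. Lfng, lunatic fringe, which extends O-fucose on the receptor and so tunes its response to Delta-like against Jagged ligands, fell with E2 1.56-fold, from 5.09, 5.54 and 5.07 CPM with vehicle to 3.50, 3.14 and 3.41 CPM (log2 fold change -0.64 ± 0.12, adjusted p = 2.4e-06). With BMP2 it was measured at 4.65, 4.68 and 5.66 CPM, overlapping vehicle (-0.063, adjusted p = 0.772). Poglut1, which adds O-glucose, rose 1.09-fold with E2 (0.12 ± 0.034, adjusted p = 0.00287).

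Of 10 genes for receptor cleavage and γ-secretase, 4 fell and none rose with E2, and 1 rose with BMP2. Furin, the protease that cuts the receptor on its way to the surface, fell with E2 from 76.4 ± 1.44 to 64.7 ± 1.59 CPM (log2 fold change -0.24 ± 0.032, adjusted p = 1.7e-10), and was at 76.4 ± 1.17 CPM with BMP2. The γ-secretase genes Psen2 (-0.15, adjusted p = 0.0398), Aph1b (-0.15, adjusted p = 0.0111) and Aph1c (-0.31, adjusted p = 0.0277) fell with E2. The call of Psen2 was lost without vehicle replicate 2 (0.230), E2 replicate 1 (0.222) or E2 replicate 2 (0.0922), in DESeq2 (0.107), with no filter (0.0504) and with the GC and length trends removed (0.156). That of Aph1b was lost without E2 replicate 1 (0.108), and that of Aph1c without vehicle replicate 1 (0.121), vehicle replicate 3 (0.0925) or E2 replicate 3 (0.172) and in DESeq2 (0.0980). Aph1b and Aph1c are near-identical paralogs, and how reads that match both were counted is not given, so their values are uncertain. Adam10, the ligand-triggered protease, rose 1.05-fold with BMP2 (0.065 ± 0.019, adjusted p = 0.0125), which did not pass without BMP2 replicate 1 (0.0547), BMP2 replicate 3 (0.0705) or vehicle replicate 2 (0.0804).

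Of 14 genes for endocytosis and turnover, 3 rose and 1 fell with BMP2, and 4 rose and 4 fell with E2. The Deltex ubiquitin ligases Dtx1 and Dtx4 fell with E2: Dtx1 from 24.0 ± 0.805 to 16.8 ± 1.35 CPM (log2 fold change -0.52 ± 0.057, adjusted p = 2.3e-14) and Dtx4 from 20.1 ± 0.368 to 12.9 ± 1.55 CPM (-0.63 ± 0.064, adjusted p = 2.3e-16). Numb, an endocytic adaptor that opposes Notch, rose 1.15-fold with E2, from 112 ± 2.55 to 128 ± 1.59 CPM (0.20 ± 0.026, adjusted p = 1.7e-10), and stood at 110 ± 2.72 CPM with BMP2. Nedd4, a ubiquitin ligase, rose 1.04-fold with E2 (0.059 ± 0.014, adjusted p = 5.4e-04), a call lost when the GC and length trends were removed (0.118). Fbxw7, the ubiquitin ligase subunit that marks the Notch intracellular domain for destruction, rose 1.12-fold with BMP2 (0.16 ± 0.030, adjusted p = 2.2e-05). With E2 Fbxw7 rose 1.06-fold (0.079, adjusted p = 0.0381), a call lost without vehicle replicate 1 (0.138), vehicle replicate 2 (0.172), E2 replicate 1 (0.0820) or E2 replicate 2 (0.135), in DESeq2 (0.0810) and with the GC and length trends removed (0.218). Further changes with BMP2 passed in Mib2, which drives ligand endocytosis (0.11, adjusted p = 0.0124), Dtx3 (0.11, adjusted p = 0.0216) and Dtx4 (-0.17, adjusted p = 0.0382). None of these calls held without each library in turn. Mib2 did not pass without BMP2 replicate 2 (0.0526), vehicle replicate 1 (0.0732) or vehicle replicate 3 (0.0738), and Dtx3 did not without the same libraries (0.241, 0.108 and 0.209) or in DESeq2 (0.0965). Dtx4 did not pass without BMP2 replicates 1 (0.133), 2 (0.0600) or 3 (0.0980), without vehicle replicate 1 (0.133) or 3 (0.0726), or in DESeq2 (0.137).

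Of 16 genes tested for the nuclear complex and its corepressors, 2 rose and 1 fell with BMP2, and 3 rose and 3 fell with E2. Rbpj itself was measured at 119 ± 3.82 CPM with vehicle, 115 ± 2.17 CPM with BMP2 and 115 ± 0.863 CPM with E2 and did not pass (adjusted p = 0.242 and 0.212), although with the GC and length trends removed it passed as lower with E2 (0.00628). Tle2, a Groucho corepressor that works with Hes and Hey proteins, rose 1.17-fold with BMP2, from 72.9 ± 1.74 to 85.1 ± 2.02 CPM (log2 fold change 0.22 ± 0.031, adjusted p = 3.2e-09). Its rise with E2 was at the threshold (0.077, adjusted p = 0.0499) and was lost without vehicle replicate 2 (0.0955), vehicle replicate 3 (0.170), E2 replicate 1 (0.234) or E2 replicate 2 (0.0697), in DESeq2 (0.0997), with no filter (0.0567) and with only the groups compared (0.0563). Its relative Tle3 fell 1.08-fold with E2 (-0.11, adjusted p = 0.00198), as did the Mastermind coactivator Maml3, 1.13-fold (-0.17 ± 0.044, adjusted p = 9.1e-04). The acetyltransferase gene Kat2a rose with BMP2 (0.11, adjusted p = 0.00666) and with E2 (0.12, adjusted p = 0.00179), and the former call was lost without vehicle replicate 1 (0.101) or BMP2 replicate 2 (0.0673). Snw1, a cofactor of the complex, rose with E2 (0.089, adjusted p = 0.00267), a call lost when the GC and length trends were removed (0.0505). Crebbp fell with BMP2 (-0.079, adjusted p = 0.0346), which did not pass without BMP2 replicate 1 (0.158), BMP2 replicate 3 (0.168) or vehicle replicate 2 (0.205), or in DESeq2 (0.0927).

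Of 7 further target genes tested, 1 fell with BMP2, and 1 rose and 3 fell with E2. Ccnd1, the G1 cyclin D1 and a target shared with several other pathways, fell with both: from 31.6 ± 1.39 CPM with vehicle to 25.2 ± 0.919 CPM with BMP2 (log2 fold change -0.33 ± 0.048, adjusted p = 2.7e-08) and to 25.5 ± 0.952 CPM with E2 (-0.31 ± 0.049, adjusted p = 5.3e-08). The treatments differed from each other by -0.019 (adjusted p = 0.828). Id4, an inhibitor of helix-loop-helix factors, rose 1.23-fold with E2 (0.30 ± 0.056, adjusted p = 2.3e-06), and Nrip2 fell 1.23-fold (-0.30 ± 0.089, adjusted p = 0.00424). Hes6, which counters Hes1, fell with E2 (-0.15, adjusted p = 0.0286), a call lost without vehicle replicate 1 (0.264), E2 replicate 2 (0.102) or E2 replicate 3 (0.0889), in DESeq2 (0.0936) and with the GC and length trends removed (0.236). Hes5, a main Notch target in other tissues, had 4 to 21 counts per library, and a difference from vehicle was not detectable at this depth (adjusted p = 0.627 with BMP2 and 0.891 with E2).

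Set directly against each other, the treatments differed in Dll1, Dlk1, Lfng and the Deltex genes Dtx1 and Dtx4, among others. BMP2 against E2 gave log2 fold changes of -0.84 ± 0.088 for Dll1 (adjusted p = 2.2e-15), 0.47 ± 0.030 for Dlk1 (adjusted p = 7.5e-31), 0.58 ± 0.12 for Lfng (adjusted p = 2.5e-05), 0.54 ± 0.057 for Dtx1 (adjusted p = 2.4e-15) and 0.46 ± 0.065 for Dtx4 (adjusted p = 7.9e-10). These 5 also passed the test against a change of 1.2-fold, in E2 against vehicle and in BMP2 against E2. Furin was higher with BMP2 (0.24, adjusted p = 1.6e-10) and Numb lower (-0.22, adjusted p = 8.5e-13).

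Genes with the most similar pattern over the 9 libraries were sought for Notch2, Jag1 and Hey2, the last being the Notch gene with the widest range of group means (0.59 on the log2 scale). Likeness was the root mean square difference of log2 CPM after each gene was centred on its own mean, so a small value means a close match. For Notch2 the closest were Hexim1 (0.0233), Golim4 (0.0242) and Epb4.1l3 (0.0266). Hexim1 was measured at 116 ± 1.42 CPM with vehicle, 124 ± 0.164 CPM with BMP2 and 106 ± 4.80 CPM with E2, the same order of groups as Notch2. For Jag1 the closest were Ms4a6c (0.0296), Rps14 (0.0411) and Depdc7 (0.0416), of which Rps14, a ribosomal protein gene, was at 1182 ± 23.2 CPM with vehicle, 993 ± 6.58 CPM with BMP2 and 1025 ± 32.3 CPM with E2. For Hey2 the closest were Pip5k1b (0.0858), Dab1 (0.109) and Slc26a2 (0.110), each highest with E2 and lowest with BMP2, as Dab1 shows at 8.75 ± 0.476, 7.81 ± 0.356 and 11.7 ± 0.478 CPM with vehicle, BMP2 and E2. These are descriptions over libraries that share the treatments and carry no test.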

How the data were processed

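RNA-seq was done on 9 libraries of cultured mouse ovaries. Per the labels' protocols, total RNA from a Qiagen micro kit, with an RNA integrity number over 9, went into Illumina TruSeq RNA v2 libraries. The authors deposited whole-number read counts per gene, 1 file per library, of 23420 genes. Per the submitters' processing notes, TopHat2, HTSeq, DESeq2 and the build mm10 were used; versions, annotation and strand setting were not given in the sources used here. The 5 summary rows of reads given to no gene, 38.2% to 39.7% of a library's total, were left out.

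The test was that of edgeR 4.0.16 (R 4.3.3): filterByExpr defaults (minimum count 10, minimum total 15), TMM factors, and a robust quasi-likelihood fit of all 9 libraries with a mean per group and 6 residual degrees of freedom. Adjusted p is by Benjamini-Hochberg over the 16360 genes tested. Tests and intervals add to the residual degrees of freedom a prior number estimated over all genes. Standard errors come from the F statistic (the absolute log2 fold change over the root of F). A fold change is of the first group named over the second. The procedure was also run on simulated counts drawn with the same spread for all genes. That run cannot show how it performs on genes that spread more. GENCODE vM21 (GRCm38, the same build as mm10) gave coordinates and exon lengths. Alternatives were DESeq2 1.42.0, other scaling, filters and thresholds, only the groups compared, a test against 1.2-fold (glmTreat), removal of trends on GC content and length (93.6% of tested genes had both), the replicate number as a block, and leaving out each library.

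The 10 Notch genes and the lists were chosen with earlier results of these data known. Other pathway genes were named when called against vehicle with a mean CPM of at least 1, at most the 4 smallest adjusted p per role and comparison, with Notch4, Dll1, Dll4, Rbpj, Lfng and Hes5 always named. The likeness search took, for Notch2, Jag1 and the Notch gene with the widest range of group means, the 3 closest genes outside the lists.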

Additional observations from a re-analysis of the deposited data

How the results depend on the processing

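The numbers of the 10 Notch genes called were 3 in BMP2 against vehicle, 6 in E2 against vehicle and 5 in BMP2 against E2. With DESeq2, and also at an adjusted p under 0.01, the numbers were 2, 4 and 3 in these comparisons. With no filter on low counts they were 3, 6 and 3. Against a change of 1.2-fold, edgeR's glmTreat called 0 in BMP2 against vehicle (0 also at an unadjusted p under 0.05), 1 in E2 against vehicle and 1 in BMP2 against E2. Of the other pathway genes it called 0, with 2 at an unadjusted p under 0.05, 5 and 5 in these comparisons, where 10, 27 and 25 were called before, and of all genes 70, 877 and 784, where 2239, 5278 and 4607 were called. In BMP2 against vehicle, 5 other pathway genes passed at an adjusted p under 0.01, and all genes called numbered 1465 with DESeq2 and 1318 at that threshold. Leaving out 1 library gave 1 to 3 Notch genes in BMP2 against vehicle, with 1 left without vehicle replicate 3. It gave 4 to 5 in E2 against vehicle and 3 to 5 in BMP2 against E2, while other pathway genes in BMP2 against vehicle ran from 6 to 9. Fewer samples or a stricter test account for some of these by construction, and for the rest the cause was not tested. Of the Notch genes called, 1 of 3, 3 of 6 and 3 of 5 kept their calls without each library in turn.

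Directions turned only for values that did not pass. With GC and length trends removed, Hes1 was at 0.018 and Notch4 at -0.015 in BMP2 against vehicle. Over the libraries left out, log2 fold changes in BMP2 against vehicle ran from -9.6e-04 to 0.090 for Notch1, -0.022 to 0.035 for Hes1, -0.033 to 0.14 for Heyl, -0.074 to 0.098 for Notch4 and -0.82 to 0.63 for Hes5. In E2 against vehicle they ran from -0.096 to 0.046 for Notch4 and -0.42 to 1.17 for Hes5, and in BMP2 against E2 from -0.063 to 0.022 for Notch1, -0.077 to 0.0077 for Jag1 and -0.084 to 0.13 for Nrarp.

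The labels give the groups the same replicate numbers but do not pair them. Same-numbered libraries correlated at -0.0094 to 0.072 in their deviations from the group means, and libraries of different number at -0.043 to 0.036. With the number as a replicate block 3, 6 and 5 Notch genes, 10, 27 and 26 other pathway genes and 2512, 5512 and 4875 of all genes were called.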
